A study of Homo sapiens with 4 samples.

Results

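The cohesin contacts of chromosome 20 were examined in A673 cells on either side of 30 Mb (hg19), in libraries without and with STAG2. A contact is a pair of anchors, stretches of DNA where the authors found cohesin, joined by paired-end tags (PETs), reads whose ends come from both anchors. Members were the anchor pairs of chromosome 20 with at least 10 PETs summed over 4 libraries, 2006 of the 39602 such pairs in the genome. Of these, 463 lay below 30 Mb and 1543 above it, and none spanned it. The members were chosen by their summed PETs, and the boundary was selected on the genotype ratio itself, which earlier results of the same libraries gave as lower below 30 Mb. The ratio of each side is therefore a description and was not tested. The files do not mark the centromere, so the sides are named by coordinate and not by arm.

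A673 is an established cell line of Ewing sarcoma, a tumour driven by the EWS-FLI1 fusion. Cas9 editing and growth from single cells gave the clones behind the 2 STAG2-null libraries, and the 2 wild-type libraries were of A673 cells with STAG2. The labels give neither how many clones there were nor whether the libraries of a group came from different cultures. The p-values below thus rest on library-to-library spread alone, and that spread may be technical. Contacts do not measure STAG2 itself, and its loss was not checked here.

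Cohesin is a ring-shaped complex that extrudes loops of chromatin until it is stopped, often at sites bound by CTCF. SMC1 is a core subunit of the ring, and STAG2 is a subunit that binds the ring and can be replaced by its relative STAG1. HiChIP joins by ligation DNA that is in contact inside the nucleus and pulls down, with an antibody, the fragments held by a protein, here SMC1, so a PET count reports contact, cohesin at the anchors and the number of DNA copies of the region together. Differences in copy number between the clones and the wild-type cells, in cohesin binding and in looping cannot be told apart from these counts.

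Among the contacts described below, those of 3 genes are shown first by their promoters: PREX1, ARFGEF2 and PLCG1. PREX1 and ARFGEF2 were both named for a contact with PETs in STAG2-null libraries only, which does not end at the PREX1 promoter anchor. Other contacts named for PREX1, also given below, had fewer PETs in STAG2-null libraries. PLCG1 was named for a contact with most PETs in wild-type libraries. PREX1 encodes an exchange factor that activates Rac, ARFGEF2 an exchange factor for ARF GTPases in vesicle traffic, and PLCG1 the phospholipase that acts below receptor tyrosine kinases. Of 9 genes that could be placed at an anchor, 7 had a RefSeq promoter (GRCh38.p14). Each sequence is the 250 bases printed 5′ to 3′ on the gene's strand, at chr20:48828000-48828249 (minus strand) for PREX1, chr20:48921461-48921710 (plus strand) for ARFGEF2 and chr20:41137293-41137542 (plus strand) for PLCG1. Capitals mark the core letters of ETS factors, the family of FLI1 (CCGGAAG, or CTTCCGG on the other strand), the only motif marked here.
PREX1: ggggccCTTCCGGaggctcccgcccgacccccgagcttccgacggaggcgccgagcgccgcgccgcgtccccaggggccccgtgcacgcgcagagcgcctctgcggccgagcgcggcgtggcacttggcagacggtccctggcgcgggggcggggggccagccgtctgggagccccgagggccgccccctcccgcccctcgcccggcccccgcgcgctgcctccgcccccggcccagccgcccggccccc
ARFGEF2: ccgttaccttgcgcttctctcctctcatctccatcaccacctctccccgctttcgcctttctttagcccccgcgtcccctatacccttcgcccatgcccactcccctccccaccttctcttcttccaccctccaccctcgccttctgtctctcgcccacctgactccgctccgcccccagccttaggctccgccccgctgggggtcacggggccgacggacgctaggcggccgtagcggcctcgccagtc
PLCG1: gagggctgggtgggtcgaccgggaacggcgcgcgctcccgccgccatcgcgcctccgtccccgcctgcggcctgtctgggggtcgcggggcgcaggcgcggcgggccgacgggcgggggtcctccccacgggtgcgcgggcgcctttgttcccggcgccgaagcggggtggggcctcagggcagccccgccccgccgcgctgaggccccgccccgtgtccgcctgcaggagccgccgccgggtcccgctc
The PREX1 promoter held 1 ETS core, and the ARFGEF2 and PLCG1 promoters held none in these windows. Of all 35116 RefSeq promoters of this length, 8.52% held it. The GC box GGGCGG (or CCGCCC) occurred 6 times in the PREX1 window, 2 times in that of ARFGEF2 and 3 times in that of PLCG1, and 42.6% of all promoters held it. The authors' deposited table marks FLI1 binding at the PREX1 anchor and not at those of ARFGEF2 and PLCG1.

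Depth ran from 661881 PETs in wild-type 1 to 765017 in wild-type 2, with 682724 in STAG2-null 1 and 698002 in STAG2-null 2. Chromosome 20 took 4.58% and 4.36% of them in the STAG2-null libraries and 5.11% and 5.10% in the wild-type libraries. PETs are given below as counts, or as normalised PETs, counts per 1000000 PETs of the library total after TMM scaling. A log2 ratio is of STAG2-null over wild-type, and a negative value means fewer normalised PETs in STAG2-null libraries. The sides differed little in depth and length, which the ratio does not use. The median pair had a length of 21.6 kb below and 22.9 kb above, and 16 and 15 PETs. Members held 31.0% of the PETs below and 31.1% above. They were sparser below, with 15.7 pairs per Mb of the stretch they covered against 47.0, and rested on 331 anchors against 953. Contacts across 30 Mb were rare at any depth: 57 pairs had a PET, none more than 6.

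Below 30 Mb, members summed to 3089 and 3061 normalised PETs in the STAG2-null libraries and to 3937 and 4099 in the wild-type libraries, a log2 ratio of -0.39. Both STAG2-null libraries lay under both wild-type libraries, and libraries of 1 genotype differed by no more than 0.06 in size on the log2 scale. The means were 3075 ± 20.04 and 4018 ± 115 (SD, n = 2 each). Above 30 Mb the sums were 11152 and 11136 against 11344 and 11745, a log2 ratio of -0.05 that became 0.01 when libraries were scaled by their totals alone. The means there were 11144 ± 11.0 and 11544 ± 284 (SD, n = 2 each), which differ by little more than the wild-type spread. Members on all other chromosomes stood at 0.01.

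The ratio below minus the ratio above was -0.33, and the pooled SD over libraries of the log2 ratio between the sides was 0.00694. An SD from 2 libraries per genotype is itself uncertain and is no measure of precision here. In pairs with 1 to 4 PETs the log2 of below over above spread more, at -1.90 and -1.79 in STAG2-null and -1.52 and -1.58 in wild-type libraries. As a share, 21.7% (95% Wilson interval 20.9 to 22.5) and 21.6% (20.8 to 22.4) of the chromosome's member PETs lay below in the STAG2-null libraries. The wild-type shares were 25.8% (24.9 to 26.6) and 25.9% (25.1 to 26.7). The boundary was selected on this difference, so nothing is read from the distance between these intervals. These intervals, and all others given here, treat PETs as independent molecules, which they need not be. They also leave out the spread between libraries, so they may be too narrow.

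**Figure D1:**
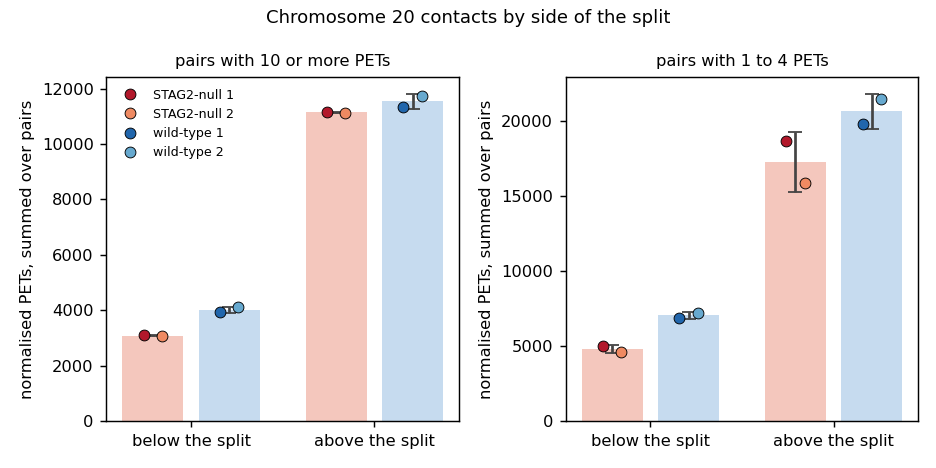
Normalised PETs (vertical axis) summed over pairs below and above 30 Mb, for pairs with at least 10 PETs (left) and with 1 to 4 PETs (right); points are the 4 libraries, bars the genotype means and error bars the SD (n = 2). Below 30 Mb, both STAG2-null points (3089 and 3061, left) lie under both wild-type points (3937 and 4099), while above it the wild-type and STAG2-null bars are close at the left and further apart at the right.

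Sparse pairs, those with 1 to 4 PETs, were not members and gave the same order of the sides at a lower level. Below 30 Mb they summed to 4992 and 4591 normalised PETs against 6879 and 7172, a log2 ratio of -0.55. Above it their ratio was -0.26, and on all other chromosomes -0.09. The side difference of sparse pairs, -0.29, was close to that of members. Sparse pairs come from the same libraries and the same selected boundary, so they are no separate support for it.

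Among members the side difference did not shrink with depth. Pairs with at least 20 PETs stood at -0.35 below and -0.00130 above, and pairs with at least 40 at -0.37 and 0.03. At the threshold, the 59 pairs below with exactly 10 PETs stood at -0.31 and the 81 pairs just outside it, with exactly 9, at -0.60. Above, the 208 pairs with exactly 10 PETs stood at -0.30 and the 256 with exactly 9 at -0.16. Between the sides, the difference was only -0.01 at exactly 10 PETs, against -0.44 at exactly 9. The classes next to the threshold thus scattered by about the size of the side difference of all members.

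By length, the ratio below was under the ratio above in each of 7 classes. Pairs shorter than 10 kb stood at -0.24 below and 0.05 above, and those of 10 to 20 kb at -0.33 and 0.01. The lowest ratio was that of the 60 pairs of 50 to 100 kb below, which summed to 381 and 294 normalised PETs in STAG2-null libraries and to 585 and 546 in wild-type libraries. Both STAG2-null libraries were under both wild-type libraries there, at a log2 ratio of -0.74 against -0.24 above and -0.20 over all chromosomes. Pairs of 200 to 500 kb stood at -0.38 below and 0.09 above. The class of 500 kb and more held only 10 and 5 pairs, at -0.42 and -0.27, where the same class over all chromosomes stood at 0.30.

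In windows of 2 Mb with at least 20 members, both STAG2-null libraries lay under both wild-type libraries in 8 of 8 windows below 30 Mb and in 7 of 16 above it. Over the genome 23.7% of 434 such windows had that order and 35.9% the opposite one. Ratios ran from -0.54 to -0.23 below, with a median of -0.41, and from -0.41 to 0.29 above. With libraries scaled by totals alone, 8 of 8 windows below and 8 of 16 above were negative, against 8 and 10 with TMM. Leaving out the fullest window below, 0 to 2 Mb with 128 members, gave -0.38 for the rest, and leaving out 4 to 6 Mb gave -0.36. Sparse pairs were counted where a window had at least 400 of their PETs over the 4 libraries. In 9 of 9 such windows below, both STAG2-null libraries lay under both wild-type libraries, at -0.67 to -0.39. Above 30 Mb they did so in 11 of 17 windows and lay over both in 0, with ratios from -0.62 to 0.06. Sparse windows were thus low on both sides, and their share over the genome was not counted. Among the thinner windows left out below, 14 to 16 Mb stood at 0.33 with 14 sparse pairs, and 6 to 8 Mb at -1.52 with 44.

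Above 30 Mb the ratio was not even along the chromosome. From 30 to 54 Mb, 1237 members stood at -0.00671, less than the 0.06 by which the wild-type libraries differed. Beyond 54 Mb, 306 members summed to 2325 and 2146 normalised PETs in STAG2-null libraries and to 2582 and 2606 in wild-type libraries, a log2 ratio of -0.21. Both STAG2-null libraries were again the lower ones, and sparse pairs beyond 54 Mb stood at -0.50, near the -0.55 found below 30 Mb. In those sparse pairs the STAG2-null libraries also differed from each other, at 4701 and 3680 against 5615 and 6220. The boundary at 54 Mb was chosen after the values were seen, so these ratios are a description.

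The window of 52 to 54 Mb, just before that boundary, had the highest ratio of the chromosome. Its 114 members, which all lay between 52 and 53 Mb, summed to 889 and 1035 normalised PETs in STAG2-null libraries and to 753 and 824 in wild-type libraries, a log2 ratio of 0.29. Both STAG2-null libraries were the higher ones there, but sparse pairs of the same Mb stood at 0.01. The next windows, 54 to 56 Mb (27 members) and 56 to 58 Mb (40 members), stood at -0.41 and -0.38. Within the latter, 22 members from 56 to 57 Mb stood at -0.81 and those from 57 to 58 Mb at 0.21.

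**Figure D2:**
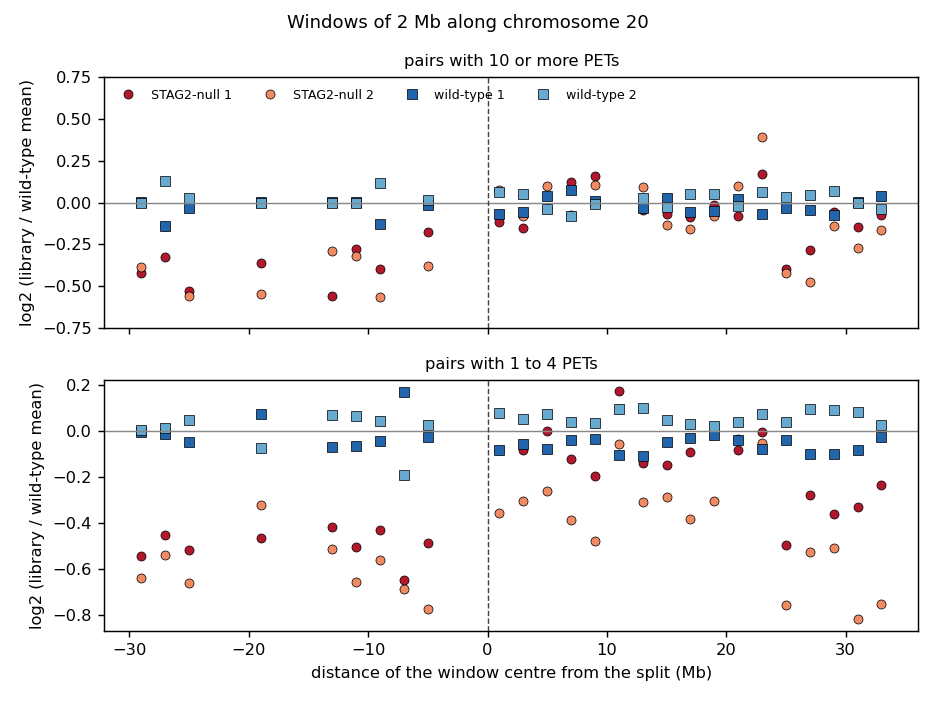
Windows of 2 Mb by distance of their centre from 30 Mb (horizontal axis, Mb); the vertical axis is log2 of a library's summed PETs over the wild-type mean, for members (top) and for pairs with 1 to 4 PETs (bottom), with 1 point per library. All STAG2-null points left of 0 lie under the wild-type points. On the right of the top panel both lie under both wild-type points in 7 of 16 windows, such as 54 to 56 Mb (-0.41). They lie over both in 2, among them 52 to 54 Mb (0.29). On the right of the bottom panel they lie under both in 11 of 17 windows and over both in 0.

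Single pairs were then tested over all 39601 pairs of the nuclear chromosomes with edgeR's quasi-likelihood test and Benjamini-Hochberg adjustment. No pair of chromosome 20 passed an adjusted p of 0.05, nor did any in the genome (0% higher and 0% lower). The lowest adjusted p of edgeR's test was 0.236 below and 0.432 above. At an unadjusted p under 0.05, 43 pairs were lower and 4 higher of 463 below, and 56 lower and 34 higher of 1543 above, against 3.38% of all pairs in each direction. DESeq2 made 0 calls too, with 9 lower and 3 higher at an unadjusted p under 0.05. The contrast chose the sides, so nothing is read from the shares.

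The median pair stood at -0.45 below (quartiles -0.97 and 0.10) and at -0.02 above (-0.58 and 0.45), where all tested pairs had a median of -0.02. A negative ratio was found in 343 of 463 pairs below (74.1%) and 881 of 1543 above (57.1%), against 54% of all pairs. Many counts are small and tie, so 35 and 131 of these lay between -0.05 and 0. Pairs under -0.05 made up 66.5% below, 48.6% above and 44.2% of all pairs, and pairs over 0.05 made up 25.9%, 42.4% and 45.7%. Both STAG2-null libraries lay under both wild-type libraries in 154 pairs below (33.3%) and 348 above (22.6%), against 20.5% of all pairs. They lay over both in 38 (8.21%) and 211 (13.7%), against 16.7%.

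**Figure D3:**
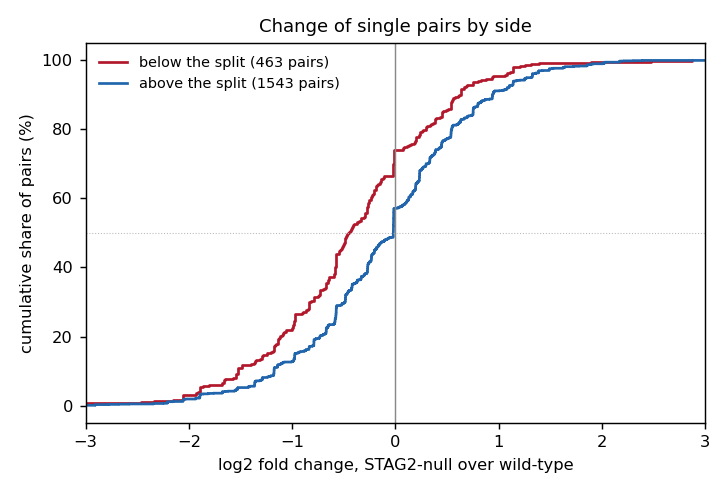
Cumulative share of pairs (vertical axis, %) by log2 fold change of STAG2-null over wild-type (horizontal axis) for the 463 pairs below and the 1543 pairs above 30 Mb. The curve of the pairs below lies to the left over most of its range, with a median of -0.45 against -0.02, and both step just under 0, where small counts tie.

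For the anchors, the PETs of all pairs at an anchor were summed, which gives more counts per value than a pair does. Each PET counts at both of its anchors, so anchors joined by a pair share PETs and their calls are not independent. The anchor fit computed its own TMM factors, while the normalised PETs printed for anchors use the factors of the pair fit. The log2 values of anchors therefore differ somewhat from the ratios of their printed PETs. Of 2482 anchors of chromosome 20 with at least 20 PETs, 22 were lower in STAG2-null libraries at an adjusted p under 0.05 in edgeR's quasi-likelihood test and 0 higher. The background over 60423 anchors was 0.513% lower and 0.377% higher. By side, 16 of 699 anchors below were lower (2.29%) and 6 of 1783 above (0.337%). At an unadjusted p under 0.05 in edgeR's test, 371 anchors of the chromosome were lower and 32 higher, where 6.17% and 5.77% of all anchors were. DESeq2 called 0, with 50 lower and 2 higher unadjusted, and leaving out 1 library left between 0 and 3 of edgeR's 22 calls (0 without STAG2-null 1, and 3 without each of the others).

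The anchor fit uses the contrast that chose the boundary, so its calls are no independent support for the ratio of a side. The median ratio of anchors below was -0.46 with 87.1% negative, against -0.18 with 65.9% negative above and 0.00124 over all anchors. Above 30 Mb, 4 of the 6 lower anchors lay beyond 54 Mb among 501 anchors with a median of -0.39, and 2 lay among the 1282 from 30 to 54 Mb, where the median was -0.09. Of the 22 lower anchors, 18 had a member pair.

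**Figure D4:**
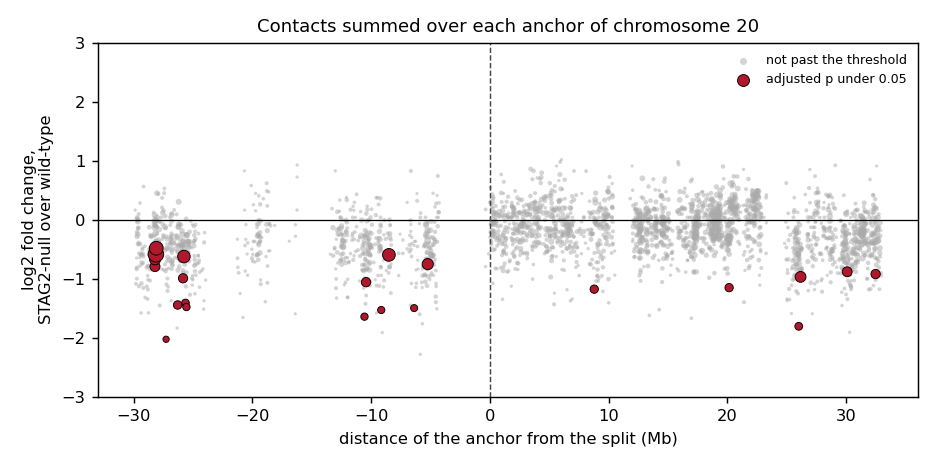
Log2 fold change of summed PETs (vertical axis) for each of 2482 anchors by its distance from 30 Mb (horizontal axis, Mb); red points are the 22 anchors with an adjusted p under 0.05 in edgeR's test, and point area grows with PETs. The red points are all below 0, with 16 to the left of the split and 6 to the right.

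The strongest anchor of the side below was that at the promoter of SIRPA, the receptor through which CD47 restrains phagocytes. It lies at chr20:1852803-1882468 (hg19), and the authors' deposited table marks CTCF, H3K27ac and a promoter there. Its normalised PETs were 405 and 375 in the STAG2-null libraries and 619 and 596 in the wild-type libraries (390 ± 20.9 and 608 ± 16.5, SD, n = 2 each). The genotypes did not overlap, at a log2 fold change of -0.58 ± 0.12 (SE; edgeR's quasi-likelihood test, adjusted p = 0.00154). In 22 of its 27 member pairs the ratio was negative, where 74.1% of all members below were. Both STAG2-null libraries lay under both wild-type libraries in 13 of the 27 and over both in 1. Of all members below, 33.3% and 8.21% did so. These pairs are part of the anchor's sum, so they are no separate support for it.

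The SIRPA anchor also held the pair with the most PETs below 30 Mb, to chr20:1891817-1901729, with 41 and 35 PETs in STAG2-null libraries and 64 and 61 in wild-type libraries. STAG2-null libraries were lower there, at -0.73 ± 0.24 (SE). Its contact to chr20:1835972-1840935 went against the side, with 26 and 27 PETs against 21 and 25, a log2 ratio of 0.19. Contacts of the same anchor thus differed in sign, and neither passed edgeR's test over all pairs. The neighbouring anchor chr20:1891817-1901729 stood at -0.48 (adjusted p = 0.0442 in edgeR's test), with 262 and 228 normalised PETs against 343 and 367. Of its 841 PETs, 201 came from its pair with the SIRPA anchor, so its call partly repeats the call of that anchor.

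ADRA1D, the gene of an alpha-1 adrenergic receptor, lies at the anchor chr20:4221216-4233088, which had 155 and 159 normalised PETs in STAG2-null libraries and 240 and 264 in wild-type libraries. The STAG2-null libraries were the lower ones, at -0.62 ± 0.15 (SE, edgeR's quasi-likelihood test, adjusted p = 0.0142). Of the anchor's 13 member pairs, which are part of that sum, 11 had a negative ratio, where 74.1% of all members below did. The other end of the SMOX contact described below, chr20:4150655-4155788, had 54.1 and 27.5 normalised PETs against 74.96 and 92.2 (log2 -0.99, adjusted p = 0.0199 in edgeR's test).

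The 6 lower anchors above 30 Mb carried no gene that could be placed. That at chr20:56164551-56174426 had 80.4 and 71.5 normalised PETs in STAG2-null libraries and 163 and 146 in wild-type libraries. The genotypes did not overlap, at -0.97 ± 0.19 (SE; edgeR's quasi-likelihood test, adjusted p = 0.00126). The smaller anchor chr20:56015152-56017184 had 17.5 and 9.62 against 42.0 and 56.4 (log2 -1.81, adjusted p = 0.00118 in edgeR's test). Both lie in the stretch beyond 54 Mb where sparse pairs were also low.

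Among the other anchors with the most PETs below 30 Mb, chr20:1916726-1935064 stood at -0.40 ± 0.13 and chr20:4196002-4212622 at -0.47 ± 0.14 (SE). Both had STAG2-null libraries under wild-type libraries and missed the threshold, at adjusted p = 0.105 and 0.0646 in edgeR's test. Their counterparts above 30 Mb, chr20:49071873-49082923 and chr20:48990820-49000529, stood at 0.02 ± 0.12 and 0.15 ± 0.12 (SE).

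The promoters placed above 30 Mb did not pass. The PREX1 anchor, chr20:47430229-47450041, had the most PETs of the chromosome, with 504 and 535 normalised PETs in STAG2-null libraries and 549 and 577 in wild-type libraries. These printed values were lower in STAG2-null libraries by little more than the spread within a genotype. The anchor fit, with its own TMM factors, gave -0.06 ± 0.11 (SE, edgeR's quasi-likelihood test, adjusted p = 0.898). CEBPB, a leucine zipper transcription factor, stood at 0.08 ± 0.13, and ID1, an inhibitor of helix-loop-helix factors, at 0.00450 ± 0.19 (SE). MRGBP, a subunit of the NuA4 acetyltransferase, stood at -0.21 ± 0.12, NTSR1, the neurotensin receptor, at -0.15 ± 0.16, PLCG1 at -0.11 ± 0.19 and ARFGEF2 at 0.12 ± 0.20 (SE). For these values the ratio is 0 within 2 standard errors.

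Pairs were next compared with the ratio of their own side, in a fit whose library offsets came from the sparse pairs of each side, which are not members. No pair of chromosome 20 passed an adjusted p of 0.05 in edgeR's quasi-likelihood test, and 1 pair in the genome did (0.00253% higher, 0% lower). At an unadjusted p under 0.05, 25 pairs were higher and 8 lower below, and 87 higher and 20 lower above, against 4.29% and 2.02% of all pairs. The offsets moved the median of all tested pairs to 0.11 and that of the chromosome's members to 0.23, and the counts in each direction are relative to that shift. With offsets from the members themselves the median was 0.03, and 57 were higher and 66 lower. DESeq2 made 0 calls, with 11 higher and 3 lower unadjusted. Over the chromosome, the unadjusted counts of 112 higher and 28 lower in edgeR's test became 138 and 47 when STAG2-null 1 was left out and 53 and 60 when STAG2-null 2 was. Leaving out wild-type 1 gave 45 and 13, and leaving out wild-type 2 gave 56 and 18. The balance of higher and lower departures thus depended on single libraries, and nothing is read from it.

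The pairs named next have the smallest unadjusted p of their side and direction. Their adjusted p in edgeR's test ran from 0.348 to 0.754, so none is a departure beyond the spread between libraries once all pairs are counted. The choice by small p favours large ratios and genotypes that do not overlap, so these and the intervals are no support for a departure. Ratios and folds given with counts compare the genotypes and are not relative to the side. Under the other settings 205 of 206 of their values kept their sign. The exception was the pair named for CDH26, which stood at 0.12 with anchors merged within 5 kb. Values given over or from a side are relative to its sparse pairs, at -0.55 below and -0.26 above. Members stood higher, at -0.39 and -0.05, so against members high departures would be smaller and low ones larger. In the fit without these offsets the CDH4 pair stood at 1.62, and the SIRPA pair to chr20:1828006-1833210 at -1.48.

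Below 30 Mb the low pair with the smallest p was named for SMOX, spermine oxidase of polyamine breakdown, by the authors' deposited table. It joins chr20:4088220-4095770 and chr20:4150655-4155788 and had 1 and 0 PETs in STAG2-null libraries against 10 and 9 in wild-type libraries. STAG2-null libraries were the lower ones by a ratio of 19.2 (exact 95% interval 3.06 to 800). A contact of the SIRPA promoter with chr20:1828006-1833210 had 11 and 7 PETs against 27 and 23, which was -0.93 ± 0.41 (SE) from its side on the log2 scale.

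Of the other 3 low pairs below, 2 lacked PETs in STAG2-null libraries. The pair from chr20:19882436-19888772 over 88.1 kb had 0 and 0 PETs against 3 and 8, at least 3.71-fold lower when the group is set to a floor of 3 PETs. That from chr20:25431855-25436124 over 16.1 kb had 0 and 0 against 5 and 5, at least 3.38-fold lower by the same floor. A pair of 5.4 kb from chr20:4428956-4433145 had 0 and 1 PETs against 6 and 4 (ratio 10.1, exact 95% interval 1.44 to 440).

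Of the 5 pairs that stood over their side below 30 Mb, 4 had lengths of 22.1 kb or less. A pair of 6.1 kb from chr20:1939361-1941013 had 7 and 11 PETs in STAG2-null libraries and 0 and 3 in wild-type libraries, a ratio of 5.92 (exact 95% interval 1.73 to 31.4). The genotypes did not overlap there. A pair of 10.3 kb from chr20:23329649-23335496 had 9 and 4 PETs against 1 and 1 (6.42, exact 95% interval 1.45 to 58.6). The longest, 408 kb from chr20:1744253-1746382, had 3 and 6 PETs against 1 and 0 (8.88, exact 95% interval 1.23 to 389). The other two, from chr20:19428504-19431036 and chr20:3746042-3751132, had 6 and 6 against 1 and 2, and 11 and 14 against 5 and 8.

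Above 30 Mb the high pair with the smallest p was named by the authors' deposited table for CDH4, retinal cadherin. It joins chr20:60004296-60006518 and chr20:60008132-60015285 and had 17 and 21 PETs in STAG2-null libraries against 5 and 7 in wild-type libraries. STAG2-null libraries were higher, by 1.89 ± 0.47 (SE) over the side on the log2 scale. The window of 60 to 62 Mb that holds it stood at -0.21.

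The contact that the authors' deposited table names for PREX1 and ARFGEF2, whose promoters are printed above, spans 238 kb from chr20:47295201-47306877 to chr20:47536088-47541261. It had 5 and 6 PETs in STAG2-null libraries and 0 and 0 in wild-type libraries, at least 3.62-fold higher by the same floor of 3 PETs. Neither of its ends is the anchor placed at the PREX1 promoter, and the second is the ARFGEF2 anchor. A contact of 46.0 kb that the authors' deposited table also names for PREX1, from chr20:47272370-47280583, went the other way. It had 5 and 6 PETs against 16 and 18, which was -1.36 ± 0.49 (SE) from its side. The contact named for PREX1 that does end at its promoter anchor, of 101 kb from chr20:47335585-47342850, was also lower in STAG2-null libraries. It had 6 and 6 PETs against 11 and 17, a log2 ratio of -1.22 ± 0.49 (SE), and did not pass edgeR's test over all pairs.

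Other pairs over their side were named for ZNF217 and ZFP64. ZNF217 encodes a zinc finger factor, and its 365 kb contact with BCAS1 had 6 and 11 PETs in STAG2-null libraries and 1 and 2 in wild-type libraries (ratio 5.59, exact 95% interval 1.62 to 29.8). It starts at chr20:52204873-52217380, inside the window with the highest ratio. A pair of 6.7 kb named for ZFP64, also a zinc finger gene, had 8 and 16 against 5 and 2. A pair of 12.8 kb at chr20:48978860-48986965 with no gene name had 38 and 35 against 22 and 22, or 0.97 ± 0.31 (SE) over its side.

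Of the low pairs above, that at PLCG1 spans 35.3 kb from chr20:39761345-39768779 and had 1 and 1 PETs in STAG2-null libraries against 9 and 6 in wild-type libraries. STAG2-null libraries were lower by a ratio of 7.60 (exact 95% interval 1.77 to 68.5), while the whole anchor stood at -0.11. The pair named for CDH26, a cadherin, had 0 and 2 against 7 and 7 (7.09, exact 95% interval 1.63 to 64.3). A contact named for SLCO4A1, NTSR1 and MRGBP, of 110 kb, had 3 and 2 against 6 and 15. An unnamed pair at chr20:51399583-51402982 had 1 and 0 against 9 and 2, where wild-type 1 gave most of the PETs.

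**Figure D5:**
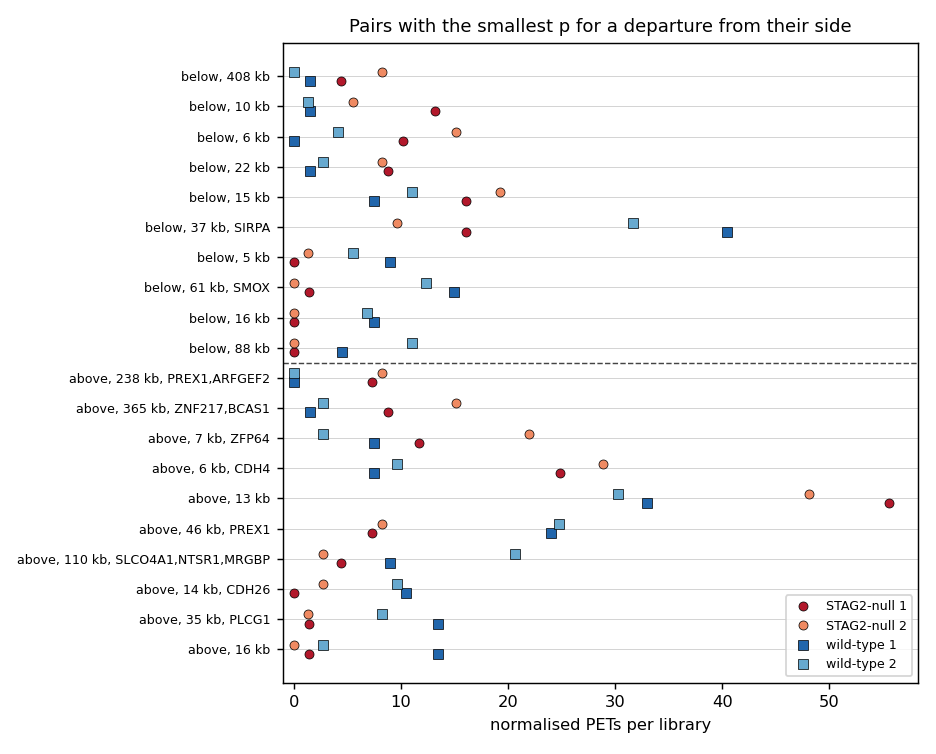
Normalised PETs per library (horizontal axis) for the 20 pairs with the smallest p for a departure from their side, named by side, length and gene; circles are STAG2-null and squares wild-type libraries, and the dashed line parts the pairs below 30 Mb from those above. Within each side the first 5 pairs have both STAG2-null points to the right and the last 5 have them to the left, and most values lie under 20.

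The pairs with the most PETs did not include these. Below 30 Mb, 5 of the 6 with the most PETs were negative or close to 0. The pair chr20:1891817-1901729 to chr20:1916726-1935064 had 44 and 28 PETs in STAG2-null libraries and 41 and 56 in wild-type libraries, which overlap. The pair chr20:4196002-4212622 to the ADRA1D anchor had 26 and 22 against 31 and 44, and the pair at chr20:24739245-24743910 had 20 and 23 against 23 and 22, a ratio of -0.08.

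Above 30 Mb the pair with the most PETs joins chr20:47420383-47429323 to the PREX1 promoter and had 58 and 75 PETs in STAG2-null libraries against 53 and 60 in wild-type libraries (log2 0.21 ± 0.22, SE). The next, chr20:48990820-49000529 to chr20:49002056-49019673, had 50 and 50 against 31 and 38 (0.52 ± 0.25). STAG2-null libraries were higher in both after normalisation. The CEBPB anchor met chr20:49071873-49082923 over 269 kb with 32 and 47 against 23 and 39, where the genotypes overlap. The pair chr20:61390629-61410368 to the MRGBP anchor had 25 and 42 against 45 and 45, a ratio of -0.45.

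Of the 20 pairs with the smallest p for a departure, 11 are also in the authors' deposited table. In the authors' deposited table, 31 of 650 differential loops lie on chromosome 20. All 31 were members, and the PETs listed there for each library equalled those joined here. By the authors' deposited table, 9 of 10 loops below 30 Mb were stronger in wild-type and 1 in STAG2-null cells, against 12 and 9 above and 300 and 350 in the genome. In the authors' deposited table, 5 of the 21 loops stronger in wild-type cells had CTCF at both anchors, and 0 of the 10 stronger in STAG2-null cells, where over the genome 100 of 300 and 85 of 350 did. These counts were not tested, and nothing particular to the chromosome is read from so few loops. The adjusted p ran from 0.00545 to 0.0987 on this chromosome, per the authors' deposited table. The table was made from these libraries and is not independent of the values above.

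The genes named for those loops include CDC25B of the cell cycle and BCL2L1 of cell survival. Below 30 Mb, a pair of 37.1 kb named for CDC25B, the phosphatase that activates cyclin-dependent kinases, and for CENPB had 4 and 4 PETs in STAG2-null libraries against 11 and 13 in wild-type libraries (log2 -1.57 ± 0.56, SE). Above it, a pair of 17.4 kb named for BCL2L1, which encodes the survival protein BCL-XL, had 3 and 2 PETs against 11 and 8 (-1.89 ± 0.66, SE). In both pairs the STAG2-null libraries lay under the wild-type libraries, and neither passed edgeR's test over all pairs. A pair of 45.9 kb named for HM13 and ID1 had 5 and 11 PETs against 8 and 26, where the genotypes overlap after normalisation.

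Loops named in the authors' deposited table for 1 gene did not all go one way. At the SIRPA anchor the authors' deposited table lists 5 loops, all as stronger in wild-type cells, such as that of 53.4 kb with 5 and 5 PETs against 14 and 14. A pair of 15.3 kb from the ADRA1D anchor had 6 and 3 against 11 and 14, and a pair of 6.0 kb named for SLC24A3, a calcium exchanger of the plasma membrane, had 5 and 4 against 15 and 14. At SLCO4A1, which encodes an organic anion transporter, the anchor chr20:61311275-61315352 had 3 and 2 PETs against 6 and 15 with the MRGBP anchor, and 11 and 5 against 3 and 1 with chr20:61390629-61410368. Contacts of this anchor thus ran in opposite directions. A pair of 166 kb from the CEBPB anchor had 4 and 7 PETs against 1 and 0 (ratio 10.9, exact 95% interval 1.58 to 467), higher in both STAG2-null libraries, while the anchor as a whole stood at 0.08.

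Members in the authors' list of high-confidence loops numbered 300 below (64.8%) and 870 above (56.4%). Their ratio was -0.37 below, and that of the other members -0.46. Above, the ratios were -0.02 and -0.13. The side difference was present in both classes of member. The boundary was selected on the genotype ratio of these libraries, so this is a description and no separate support.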

How the data were processed

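The measure was PETs of SMC1 HiChIP in A673 libraries, 2 of them STAG2-null and 2 wild-type. The authors deposited, for each library, a count of PETs and a p-value for every anchor pair; the p-value was not used. The submitters' processing notes list HiC-Pro and the build hg19. Loop caller settings were not given in the sources used here. Their table of differential loops was deposited with counts, a log2 fold change of wild-type over STAG2-null and an adjusted p-value, per its header. Genes were placed at anchors through that table, 9 of the 15 it names at promoter anchors of chromosome 20, and 6 not.

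The 4 files were joined on anchors. Pairs with at least 10 PETs and anchors with at least 20 PETs, over the 4 libraries and the whole genome, were tested with edgeR 4.0.16 (R 4.3.3, quasi-likelihood, genotype alone). TMM factors ran from 0.950 to 1.04 for pairs and were computed separately for the anchor fit. Normalised PETs of anchors use the factors of the pairs. Benjamini-Hochberg adjustment ran over all pairs or all anchors tested, with calls at an adjusted p under 0.05. A second fit took each side's library offsets from pairs with 1 to 4 PETs. DESeq2 1.42.0 was an alternative. Scripts were tested on simulated data. The 1 mitochondrial pair was left out. Totals of 661881 to 765017 PETs limit single pairs, most of which have under 20 PETs.

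The members, the boundary at 30 Mb and the gene lists were chosen with earlier results of these data known. Named pairs are the 6 with the most PETs per side, those that pass, the 5 with the smallest p per side and direction in the second fit, and examples from the authors' table, chosen after their values were seen; named anchors are the 4 with the most PETs per side, those placed at a gene, and examples of those that passed, chosen after their values were seen. Where a group had no PET, a fold is given against a floor of 3 PETs. Exact intervals are Clopper-Pearson intervals at 95%.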

Additional observations from a re-analysis of the deposited data

How the results depend on the processing

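The ratio below 30 Mb, -0.39, was negative in all settings run: -0.55 in sparse pairs, -0.35 from 20 PETs, -0.49 over all pairs, -0.31 with the split at 35 Mb, -0.49 for pairs of at least 20 kb, -0.32 with library totals, and -0.41 to -0.36 without 1 library. The ratio above, -0.05, was -0.26, -0.00130, -0.18, -0.14 for sparse, 20 PETs, all and long pairs, 0.0125 with library totals, -0.00671 with the side ending at 54 Mb, and -0.0758 to -0.0256 without 1 library. Their difference, -0.33, was -0.29, -0.35, -0.31, -0.26 and -0.35 for sparse pairs, 20 PETs, all pairs, 35 Mb and long pairs, and -0.38 with the side ending at 54 Mb, a setting chosen after seeing the data; without 1 library it was -0.34 to -0.33. With a minimum of 20 PETs 1 pair was lower (the SMOX pair, adjusted p = 0.0213 in edgeR's test), and with 40 PETs 1 pair (a SIRPA pair, adjusted p = 0.0302 in edgeR's test), where fewer pairs are tested. Without STAG2-null 1, 1 pair was higher than its side, so these counts ran from 0 to 1. The 22 lower anchors became 0 with DESeq2, 10 from 10 PETs, 38 lower and 1 higher from 50 PETs, and 0 to 3 without 1 library; the cause was not tested. Deviations of same-numbered libraries had r = 0.00562 over 39601 pairs. Most of these pairs have under 20 PETs, so counting error could hide a pairing of the libraries, and none is excluded. With the replicate number as a block, 0 pairs passed in either fit, and 20 anchors were lower and 0 higher.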
